A study of Mus musculus with 11 samples.

Results

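The SLC25 family comprises the carriers that move metabolites across the inner mitochondrial membrane, and its genes named Slc25a were compared between the colon of humanized and germ-free mice. Members were the rows of the deposited count table whose gene name begins with Slc25a and a digit and that had at least 10 reads in at least 5 of the 11 mice. Of 48 rows with such a name among 43346 genes in the table, 41 met this rule, and all 41 also passed the low-expression filter of the differential expression test. The 5 germ-free Swiss Webster males carried no microbiota, and the 6 humanized males were germ-free mice of the same stock that received 300 μL of a stool suspension from a single human donor by gavage at 4 to 5 weeks of age. All mice were singly housed on an autoclaved diet and studied at 8 to 10 weeks, 4 to 5 weeks after gavage in the humanized group. Because a single donor supplied every humanized mouse, the comparison covers that microbiota only. Whole colonic tissue was sequenced, so a transcript that is less abundant may reflect fewer cells of a type or less RNA per cell, which cannot be told apart here.

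Most carriers of the family exchange a substrate on the matrix side for another on the cytosolic side, which connects oxidative phosphorylation, fatty acid oxidation, amino acid breakdown and iron use in the mitochondrion with the rest of the cell. ADP/ATP carriers and the phosphate carrier feed ATP synthase, the carnitine carrier brings long-chain acyl groups to β-oxidation, and the oxoglutarate and aspartate–glutamate carriers form the malate–aspartate shuttle. Colonocytes depend strongly on mitochondrial oxidation, and in colonized animals butyrate from bacterial fermentation is a main fuel. Not every member is mitochondrial in the strict sense, since Slc25a17 encodes a peroxisomal carrier and Slc25a46 an outer-membrane protein.

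Reads counted on genes numbered 49097005 to 64148538 per germ-free mouse and 39125290 to 54219854 per humanized mouse. Expression is given as TMM-normalized RPKM, that is, read counts divided by the deposited gene length and the scaled library size, with ± as SD over the mice of a group, n being 5 for germ-free and 6 for humanized mice throughout. Log2-fold changes (LFC, with the standard error, SE) are positive where humanized mice were higher, and FDR is the Benjamini–Hochberg adjusted p of edgeR's exact test over all 19863 tested genes. Of the 9 smooth muscle markers, 9 were lower in humanized mice at FDR below 0.01, and their summed level was 280.1 to 857 RPKM among germ-free and 38.05 to 298 RPKM among humanized mice. Epithelial markers were abundant in every mouse, with a sum of 4148 to 5547 RPKM among germ-free and 4666 to 6523 RPKM among humanized mice, and 3 of 11 were higher at FDR below 0.01. Of 6 absorptive colonocyte markers 2 were higher, Car1 (LFC of 1.34) and Ceacam20 (LFC of 0.53). The 4 not called were Slc26a3 (LFC of 1.13), Krt20 (LFC of 0.41), Car4 (LFC of 0.24) and Guca2a (LFC of −0.28). Their sum over all 6 was 4688 to 6729 RPKM among germ-free and 8443 to 13851 RPKM among humanized mice. Car1 alone had means of 3044 RPKM for germ-free and 7698 RPKM for humanized mice. Of 5 goblet cell markers 3 were higher (median LFC of 0.53), with a sum of 2567 to 3228 RPKM among germ-free and 3566 to 4736 RPKM among humanized mice. Of 6 leukocyte markers 2 were higher, Cd3e (LFC of 1.15) and Cd79a (LFC of 1.62). The myeloid markers Cd68 (LFC of −0.74, FDR = 0.0429), Csf1r (LFC of −0.53, FDR = 0.127) and Itgax (LFC of 0.19, FDR = 0.768) were not called. Ptprc (LFC of 0.40, FDR = 0.273) was not called either. The leukocyte sum was 14.1 to 18.9 RPKM among germ-free and 7.83 to 28.1 RPKM among humanized mice. Lower levels were also found for 3 of 5 fibroblast markers (sum of 103 to 198 RPKM among germ-free and 14.00 to 97.4 RPKM among humanized mice) and 5 of 6 enteric neuron and glia markers (sum of 6.42 to 9.18 RPKM among germ-free and 1.25 to 3.01 RPKM among humanized mice). Of 4 endothelial markers 0 were called, but all 4 had an LFC below 0 (−1.08 to −0.62, FDR of 0.0134 to 0.323). Their sum was 13.6 to 16.4 RPKM among germ-free and 1.78 to 12.8 RPKM among humanized mice. The part of these marker differences in the carrier changes was not tested. Humanized mouse 5 had the lowest sums of the smooth muscle, fibroblast, enteric neuron and glia, endothelial and leukocyte markers of all 11 mice.

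Together the 41 carriers summed to 1095 ± 57.2 RPKM in the germ-free group and 1362 ± 127 RPKM in the humanized group. Slc25a5 alone accounted for 38.6 ± 1.54% of this sum in the germ-free group and 41.1 ± 1.53% in the humanized group. With Slc25a24 and Slc25a3, the next most abundant, the share was 56.4 ± 1.46% and 59.4 ± 1.64%. By the deposited gene lengths, mean RPKM over all mice was above 10 for 19 carriers, between 1 and 10 for 19 and below 1 for 3.

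Of the 41 carriers, 11 rose in the humanized group (FDR below 0.01), which is 26.8% of them against 9.2% of all tested genes. Lower expression was found for 3 carriers, or 7.32% against 10.1% of all tested genes. Of the 11 higher carriers, 7 were among the 10 most abundant. The groups did not overlap for 12 carriers, or 29.3%, where 18.4% of all tested genes did not overlap. Humanized mice were above germ-free mice for 9 of these carriers and below them for 3, against 8.67% and 9.73% of all tested genes. No carrier passed an absolute LFC of 1, the range being −0.97 to 0.94, and the median LFC was 0.05 for the carriers and 0.01 for all tested genes. The median coefficient of variation of RPKM within a group was 7.32% in germ-free and 10.9% in humanized mice for the carriers, against 10.4% and 16.5% for all tested genes. Within the humanized group, mouse 5 had the highest value of 10 of the 11 higher carriers and mouse 3 the lowest value of 7.

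The number of higher carriers depended on how libraries were scaled. Total counts in place of TMM, which shift the median LFC of all genes to −0.18, left 2 carriers higher and 7 lower, or 4.88% and 17.1%, against 3.89% and 18.2% of all tested genes. Scaling to 11 epithelial markers, which shifts this median to −0.23, left 2 higher and 3 lower, or 4.88% and 7.32%, against 2.57% and 14.2% of all tested genes. Scaling to 22 nuclear genes of mitochondrial content, an alternative chosen after seeing the data that shifts the median to −0.37, left 1 higher and 13 lower, or 2.44% and 31.7%, against 2.2% and 36.5% of all tested genes. The LFC of 7 of the 11 higher carriers (Slc25a3, Slc25a11, Slc25a13, Slc25a22, Slc25a24, Slc25a39 and Slc25a46) then lay below 0. Slc25a20 stayed higher at FDR below 0.01 under each of these scalings. Slc25a4, Slc25a29 and Slc25a37 stayed lower at this FDR, but each of these scalings shifts all genes downward. Such a shift moves a carrier that is already lower further from 0, so it is no test of the lower calls. Leaving out germ-free mouse 1 or germ-free mouse 2 left 7 higher carriers in each case, or 17.1%, while the share of all genes called higher was 6.83% and 7.49%. Without humanized mouse 5, 10 carriers were higher and 3 lower, or 24.4% and 7.32%, against 9.52% and 11.5% of all genes.

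**Figure D1:**
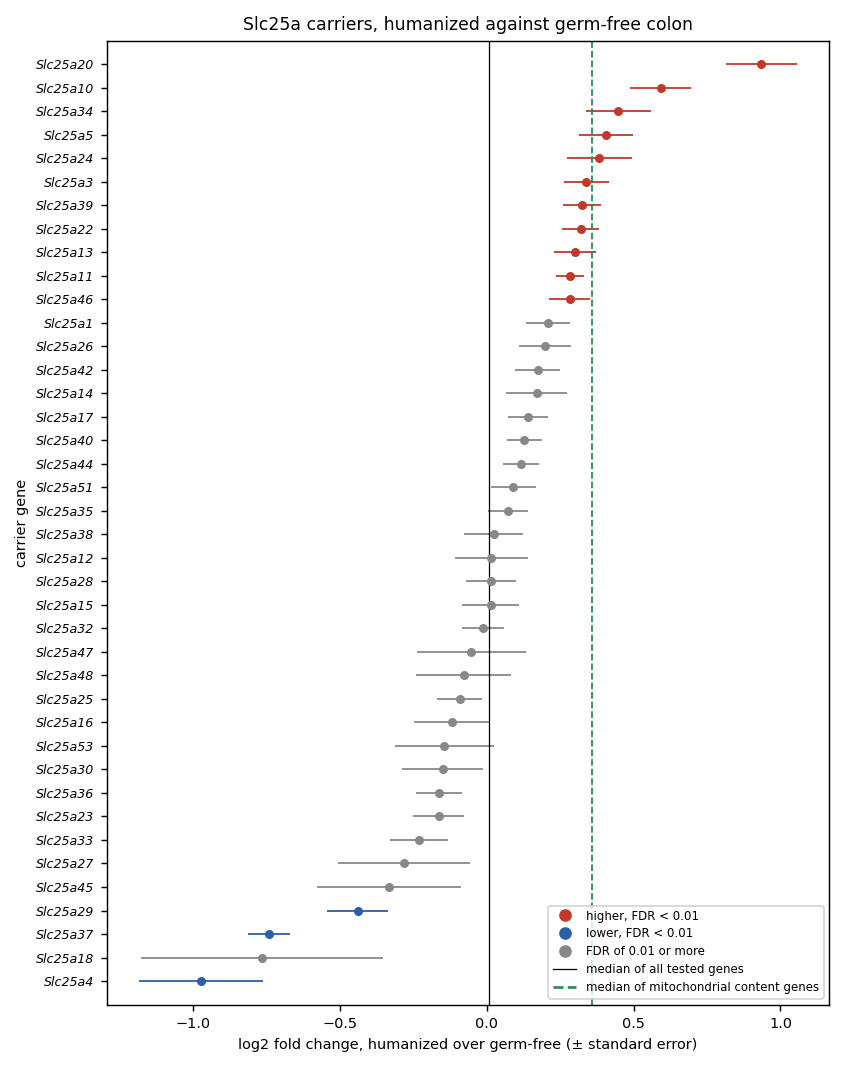
LFC of humanized over germ-free mice (x axis, log2 scale, point ± standard error) for 40 Slc25a carriers (y axis), coloured by the result of edgeR's exact test. The 11 red carriers lie right of 0 and the 3 blue carriers left of it, and the dashed line marks the median LFC of 22 mitochondrial content genes (0.36). Scaling to those genes, which shifts the median LFC of all tested genes to −0.37, turned the sign of 7 of the red carriers.

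Slc25a20, the carnitine–acylcarnitine carrier that passes long-chain acylcarnitines into the matrix, had the highest LFC of the family. It lies at chr9:108662090-108684640 (mm10), and the bases upstream of it are shown because it was the 1 carrier that remained higher under every scaling named above. Slc25a10, which had the next highest LFC, is shown for comparison. Both stretches are RefSeq sequence of build GRCm38.p6 on the plus strand, at chr9:108661886-108662089 and chr11:120491587-120491836, ending at or 3 bases before the deposited start of the gene, with GC boxes (GGGCGG on either strand) in capitals.
Slc25a20: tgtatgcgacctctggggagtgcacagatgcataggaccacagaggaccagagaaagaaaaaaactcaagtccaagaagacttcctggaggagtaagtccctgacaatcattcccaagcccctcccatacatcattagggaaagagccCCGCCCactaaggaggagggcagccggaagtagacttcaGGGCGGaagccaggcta
Slc25a10: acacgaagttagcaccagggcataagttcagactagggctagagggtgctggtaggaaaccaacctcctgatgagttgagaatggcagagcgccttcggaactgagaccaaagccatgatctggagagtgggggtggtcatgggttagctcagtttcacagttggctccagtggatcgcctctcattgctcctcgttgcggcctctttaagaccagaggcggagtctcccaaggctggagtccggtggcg
The stretch before Slc25a20 holds 2 GC boxes and that before Slc25a10 none. In the 250 bases before each RefSeq start, a GC box was present in 31 of 41 windows from the 32 carriers that had an entry, or 75.6%, against 32.7% of 32851 windows of all genes. Members had to be expressed, whereas the windows of all genes include genes that were not tested. Windows of expressed genes alone were not counted. For the 10 higher carriers with an entry it was present in 10 of 12 windows, and for the 20 carriers not called in 20 of 27. Other motifs, searched on both strands, were rarer. The E-box CACGTG was in 7 of the 41 carrier windows, or 17.1%, against 6.02% of all windows, and the cyclic AMP response element TGACGTCA was in 2, or 4.88%, against 1.55%. The motif of nuclear respiratory factor 1 was in 1, or 2.44%, against 3.74%. The estrogen-related receptor motif TNAAGGTCA (1.14% of all windows) and the PPAR direct repeat (0.03%) had no match in a carrier window. Several carriers have more than 1 window, and these overlap in part.

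Expression of Slc25a20 was 20.5, 20.2, 21.5, 23.1 and 22.3 RPKM in germ-free mice 1 to 5 and 37.1, 34.4, 33.1, 40.2, 53.5 and 48.3 RPKM in humanized mice 1 to 6. Every humanized mouse was above every germ-free mouse, and humanized mice 5 and 6 were the highest. The summed absorptive colonocyte markers were also highest in humanized mice 5 (11283 RPKM) and 6 (13851 RPKM). Their part in the change of Slc25a20 was not tested. The means were 21.5 ± 1.22 RPKM for germ-free and 41.1 ± 8.13 RPKM for humanized mice (LFC of 0.94, SE 0.12, FDR = 2.26e-11). Scaled to total counts its LFC was 0.74 (FDR = 3.26e-09), and scaled to the mitochondrial content genes it was 0.54 (FDR = 1.83e-06). Of the enzymes that flank it, Cpt1a, which forms acylcarnitine at the outer membrane, rose as well, with 59.1 ± 4.31 RPKM for germ-free and 88.2 ± 14.1 RPKM for humanized mice (LFC of 0.58, SE 0.11, FDR = 1.12e-05). Cpt2, which returns the acyl group to CoA in the matrix, had 33.7 ± 4.29 RPKM for germ-free and 54.01 ± 6.48 RPKM for humanized mice (LFC of 0.68, SE 0.10, FDR = 4.85e-08), and groups did not overlap for either gene. Cpt1b, the muscle form, was at 2.96 ± 0.211 RPKM for germ-free and 2.36 ± 0.396 RPKM for humanized mice (LFC −0.32, FDR = 0.0895). Cpt1a and Cpt1b were chosen after their values were seen. Slc25a48, a choline carrier grouped with Slc25a20, was at low levels that overlapped (0.713 ± 0.132 RPKM for germ-free and 0.677 ± 0.108 RPKM for humanized mice, LFC −0.08, FDR = 0.826).

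Among the carriers of di- and tricarboxylic acids, Slc25a10 and Slc25a11 were higher in humanized mice at FDR below 0.01 and Slc25a1 was not. Slc25a10, which exchanges malate or succinate for phosphate, had 48.5, 57.1, 56.1, 55.2 and 57.4 RPKM in germ-free mice 1 to 5 and 95.5, 64.1, 79.2, 74.1, 98.1 and 85.1 RPKM in humanized mice 1 to 6. The groups did not overlap, although humanized mouse 2 lay near the highest germ-free mouse, and the means were 54.9 ± 3.67 RPKM for germ-free and 82.7 ± 12.97 RPKM for humanized mice (LFC of 0.59, SE 0.10, FDR = 3.71e-06). It stayed below this FDR with total counts (LFC 0.40, FDR = 0.000268) and with epithelial marker scaling (LFC 0.34, FDR = 0.00714), but not when scaled to mitochondrial content genes (LFC 0.21, FDR = 0.0587). Slc25a11, the oxoglutarate–malate carrier of the malate–aspartate shuttle, had 33.5, 36.1, 35.7, 34.2 and 35.4 RPKM in germ-free mice 1 to 5 and 41.9, 41.5, 40.7, 42.1, 46.7 and 42.4 RPKM in humanized mice 1 to 6. Its groups did not overlap, and its LFC of 0.28 (standard error 0.05, FDR = 0.000197) was among the smallest that passed the test. Slc25a1, which exports citrate for fatty acid synthesis, was at 41.8 ± 2.75 RPKM for germ-free and 48.2 ± 4.82 RPKM for humanized mice (LFC of 0.21, SE 0.07, FDR = 0.0557), and the groups overlapped.

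The 2 aspartate–glutamate carriers of the same shuttle differed in level and in the test. Slc25a13, the form abundant in epithelia and liver, had 14.05 ± 0.565 RPKM for germ-free and 17.3 ± 1.82 RPKM for humanized mice (LFC of 0.30, SE 0.07, FDR = 0.00289), and every humanized mouse was above every germ-free mouse. Leaving out any of germ-free mice 1 to 4 or humanized mouse 4 or 6 raised its FDR above 0.01, to at most 0.0199. Slc25a12, the form of muscle and brain, was at 1.81 ± 0.210 RPKM for germ-free and 1.83 ± 0.307 RPKM for humanized mice (LFC of 0.01, SE 0.12, FDR = 0.963). Among the enzymes that work with these carriers, Mdh1 (malate dehydrogenase of the cytosol) was higher (LFC of 0.49, SE 0.07, FDR = 3.36e-08), and so was cytosolic malic enzyme Me1, with 6.31 ± 1.43 RPKM for germ-free and 18.5 ± 2.46 RPKM for humanized mice (LFC of 1.55, SE 0.15, FDR = 6.46e-21). Mdh2, Got1 and Got2, which complete the shuttle and were chosen after their values were seen, were higher too (LFC of 0.40, 0.35 and 0.27, FDR = 0.000127, 0.00763 and 0.00258).

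ADP/ATP carriers moved in opposite directions. Slc25a5, at chrX:36795651-36798807, encodes the form of proliferating and epithelial cells and was by far the most abundant carrier, with 366, 453, 426, 409 and 461 RPKM in germ-free mice 1 to 5 and 602, 551, 453, 540.1, 621 and 595 RPKM in humanized mice 1 to 6. Humanized mouse 3 fell within the germ-free range and the other humanized mice lay above it. The means were 423 ± 38.1 RPKM for germ-free and 560.4 ± 61.1 RPKM for humanized mice (LFC of 0.41, SE 0.09, FDR = 0.000437), but the FDR was 0.0273 with total counts, 0.126 with epithelial marker scaling and 0.758 with mitochondrial content scaling. Slc25a5 has many near-identical pseudogene copies, and how reads that match several places were counted is not given in the sources used here. The copy listed in the table, Slc25a5-ps, had between 1 and 7 reads per mouse.

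Slc25a4, the muscle and heart form of the ADP/ATP carrier at chr8:46206797-46211284, was lower in humanized mice. It had 14.2, 16.01, 17.1, 25.8 and 16.2 RPKM in germ-free mice 1 to 5 and 8.19, 9.25, 9.91, 10.8, 4.67 and 11.8 RPKM in humanized mice 1 to 6. The groups did not overlap, germ-free mouse 4 was well above the other germ-free mice and humanized mouse 5 was the lowest of all. The means were 17.9 ± 4.58 RPKM for germ-free and 9.10 ± 2.50 RPKM for humanized mice (LFC of −0.97, SE 0.21, FDR = 0.000104). Without germ-free mouse 4 the LFC was −0.80 (FDR = 0.00120), and without humanized mouse 5 it was −0.84 (FDR = 2.39e-06). The summed level of the 9 smooth muscle markers had the same lowest and highest mouse within each group. Among humanized mice it was 38.05 RPKM in mouse 5 and 298 RPKM in mouse 6, which also had the lowest and the highest Slc25a4, and the order of the 6 humanized mice was the same for both measures. Among germ-free mice the marker sum was lowest in mouse 1 (280.1 RPKM) and highest in mouse 4 (857 RPKM), as Slc25a4 was. Humanized mouse 6 and germ-free mouse 1 had near-equal marker sums and 11.8 and 14.2 RPKM of Slc25a4. Germ-free mouse 4 was also the highest and humanized mouse 5 the lowest of all mice for the sums of fibroblast, enteric neuron and glia, and endothelial markers. Both skeletal muscle markers that were tested, Ckm (LFC of −2.08) and Acta1 (LFC of −1.65), were lower in humanized mice. Of the same list, Tnnt3 had 0 to 14 reads per mouse and Myh4 had 0 reads in every mouse, and neither was tested. The part of muscle and other stromal cells in the change of Slc25a4 was not tested.

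**Figure D2:**
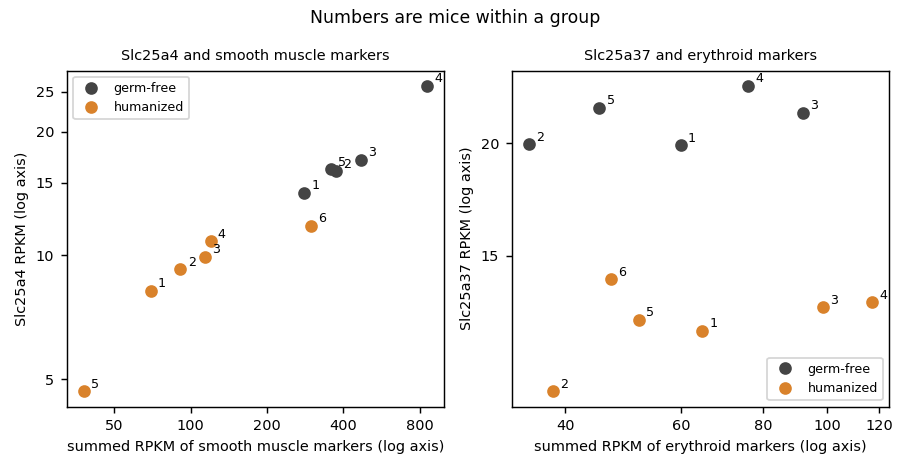
Left, RPKM of Slc25a4 (y axis, log) against the summed RPKM of 9 smooth muscle markers (x axis, log) in each mouse. Right, RPKM of Slc25a37 (y axis, log) against the summed RPKM of 4 erythroid markers (x axis, log). Numbers name the mice of a group. On the left germ-free mouse 4 is highest and humanized mouse 5 lowest in both measures, and on the right the groups are separate in Slc25a37 and overlap in the erythroid sum, where humanized mice 3 and 4 lie above the germ-free range.

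Slc25a3, which imports the phosphate needed by ATP synthase, had 93.9, 103, 97.04, 94.98 and 101 RPKM in germ-free mice 1 to 5 and 127, 115, 105, 128, 139.8 and 129 RPKM in humanized mice 1 to 6. The lowest humanized mouse was just above the highest germ-free mouse (LFC of 0.34, SE 0.08, FDR = 0.000663). Slc25a24, a calcium-dependent carrier of ATP-Mg and phosphate, had 89.2, 104, 92.00, 96.3 and 102 RPKM in germ-free mice 1 to 5 and 118, 116, 103, 114, 161 and 146 RPKM in humanized mice 1 to 6. Humanized mouse 3 overlapped with the germ-free mice (LFC of 0.38, SE 0.11, FDR = 0.00676). Its FDR was 0.0223 with the quasi-likelihood test, and this carrier was not below an FDR of 0.01 when any of the 5 germ-free mice, humanized mouse 5 or humanized mouse 6 was left out (highest FDR = 0.0319). Its paralogs Slc25a23 (LFC −0.16, FDR = 0.230) and Slc25a25 (LFC −0.09, FDR = 0.490) were not called.

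**Figure D3:**
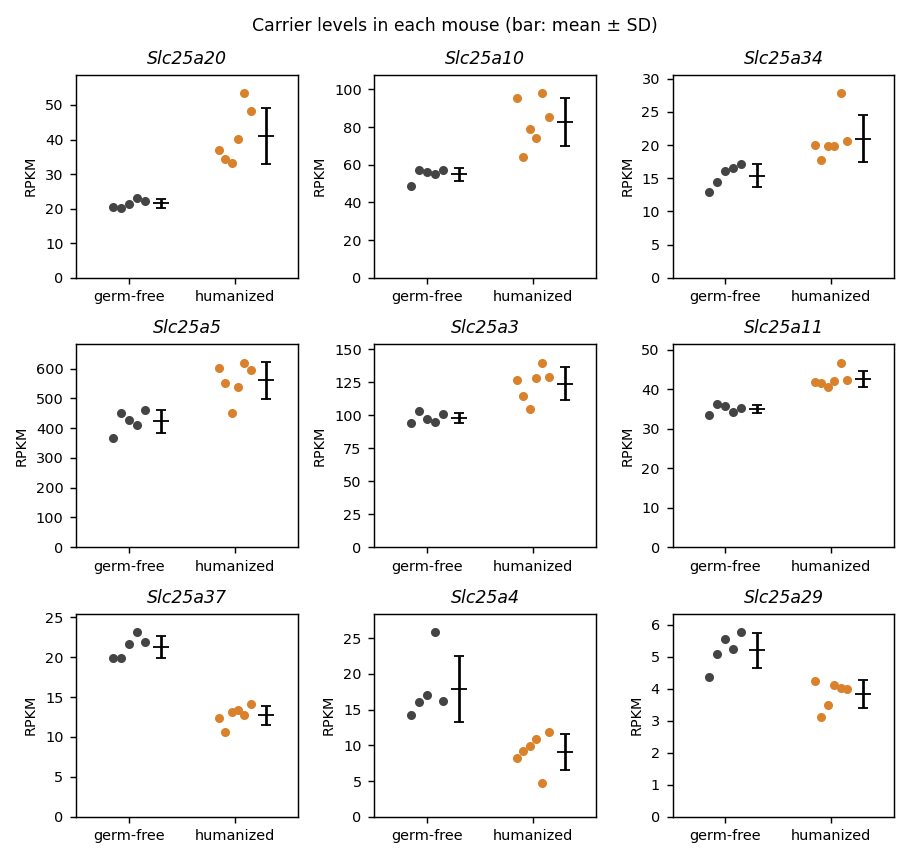
RPKM (y axis) of 9 carriers in each mouse of both groups, 1 point per mouse, with the mean and SD as bars. For Slc25a20 the humanized mice lie between 33.1 and 53.5 RPKM, above all germ-free mice, and for Slc25a37 between 10.6 and 14.1 RPKM, below all of them.

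Slc25a37 (mitoferrin 1), which imports iron for heme and iron–sulfur cluster synthesis and is best known from developing red cells, had the lowest FDR of the family. It lies at chr14:69241848-69285112 and had 19.9, 19.95, 21.6, 23.2 and 21.9 RPKM in germ-free mice 1 to 5 and 12.4, 10.6, 13.2, 13.3, 12.8 and 14.1 RPKM in humanized mice 1 to 6. Every humanized mouse was below every germ-free mouse, and the spread within each group was small. The means were 21.3 ± 1.39 RPKM for germ-free and 12.7 ± 1.19 RPKM for humanized mice (LFC of −0.74, SE 0.07, FDR = 3.73e-16), and the LFC was between −0.78 and −0.70 when each mouse was left out in turn. The 4 erythroid markers summed to 35.3 to 91.8 RPKM among germ-free and 38.3 to 117 RPKM among humanized mice, and none of the 4 was called. The smooth muscle, fibroblast, and enteric neuron and glia markers were lower in the same comparison, as given above. The endothelial markers had LFC values below 0 without a call. The part of all these markers in the change of Slc25a37 was not tested. Slc25a28 (mitoferrin 2), the form of non-erythroid tissues, was at 11.8 ± 0.633 RPKM for germ-free and 11.9 ± 1.35 RPKM for humanized mice (LFC of 0.01, SE 0.09, FDR = 0.953), with overlapping groups. In the annotation of the same build (GENCODE M21), 6.33% of the exon bases of Slc25a37 are shared with 2 genes of the opposite strand, and the library kit does not mark strand. Shared bases were also found for Slc25a10 (6.6%), Slc25a11 (8.92%) and Slc25a46 (7.06%) among called carriers and reached 31.3% for Slc25a35.

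Of the 10 members that carry amino acids or glutathione, 3 were higher and 1 was lower, where 9.2% and 10.1% of all tested genes were. Slc25a39, a glutathione carrier, had 52.7, 51.9, 53.2, 50.5 and 52.4 RPKM in germ-free mice 1 to 5 and 70.3, 57.8, 60.1, 67.5, 72.9 and 63.1 RPKM in humanized mice 1 to 6. Its germ-free mice lay within a narrow range and every humanized mouse was above them (LFC of 0.32, SE 0.07, FDR = 0.000375). Slc25a40, its less abundant paralog, was at 10.3 ± 0.190 RPKM for germ-free and 11.2 ± 0.844 RPKM for humanized mice (LFC of 0.13, SE 0.06, FDR = 0.242). Enzymes of glutathione synthesis and reduction, chosen after their values were seen, were higher in humanized mice, with LFC values of 0.41 for Gclc (FDR = 0.00328), 0.49 for Gclm (FDR = 2.84e-05), 0.46 for Gss (FDR = 1.74e-05) and 0.32 for Gsr (FDR = 0.000271). Slc25a22, which takes up glutamate together with a proton, had 7.32, 8.52, 7.71, 8.41 and 8.72 RPKM in germ-free mice 1 to 5 and 10.5, 10.1, 10.4, 9.65, 9.32 and 10.98 RPKM in humanized mice 1 to 6. The groups did not overlap (LFC of 0.32, SE 0.06, FDR = 0.000532). Slc25a18, the other glutamate carrier, had 4 to 42 reads per mouse and 0.419 ± 0.0925 RPKM for germ-free and 0.243 ± 0.169 RPKM for humanized mice, with a wide spread in humanized mice (LFC of −0.77, SE 0.41, FDR = 0.167).

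Slc25a29, a carrier of arginine, lysine and ornithine, was lower in humanized mice, with 4.35, 5.09, 5.56, 5.23 and 5.77 RPKM in germ-free mice 1 to 5 and 4.24, 3.11, 3.50, 4.10, 4.03 and 4.00 RPKM in humanized mice 1 to 6. The highest humanized mouse was just below the lowest germ-free mouse (LFC of −0.44, SE 0.10, FDR = 0.00452). Leaving out germ-free mouse 2, 3, 4 or 5 or humanized mouse 3 raised its FDR above 0.01, to at most 0.0286, with the LFC between −0.50 and −0.39. The ornithine carrier Slc25a15 was at 9.29 ± 1.17 RPKM for germ-free and 9.37 ± 1.12 RPKM for humanized mice (LFC 0.01, FDR = 0.959). The glycine carrier Slc25a38 (LFC 0.02, FDR = 0.924) and the branched-chain amino acid carrier Slc25a44 (LFC 0.12, FDR = 0.265) were not called.

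Of the 9 uncoupling-protein-like and less well characterized members, Slc25a34 and Slc25a46 were higher and none was lower, where 9.2% and 10.1% of all tested genes were. Slc25a34, whose substrate is not established, had 12.9, 14.4, 16.04, 16.5 and 17.1 RPKM in germ-free mice 1 to 5 and 20.04, 17.8, 19.8, 19.8, 27.9 and 20.6 RPKM in humanized mice 1 to 6. Humanized mouse 5 stood above the others and the lowest humanized mouse was only just above the highest germ-free mouse (LFC of 0.45, SE 0.11, FDR = 0.00156). Its FDR was 0.0106 with the quasi-likelihood test and 0.0520 with total counts, and it was above 0.01 without germ-free mouse 1 (0.0110) or germ-free mouse 2 (0.0109). Slc25a46, which takes part in shaping mitochondria and cristae, had 14.5 ± 0.701 RPKM for germ-free and 17.6 ± 1.76 RPKM for humanized mice (LFC of 0.28, SE 0.07, FDR = 0.00447), and its groups did not overlap. Its FDR was 0.0110 with the quasi-likelihood test and 0.0116 with no filter, and it was no longer below 0.01 when germ-free mouse 1, 2, 3 or 5 or humanized mouse 4 or 6 was left out (highest FDR = 0.0282). Slc25a14, Slc25a27, Slc25a30, Slc25a35, Slc25a45, Slc25a47 and Slc25a53 were not called, with LFC values from −0.33 (Slc25a45) to 0.17 (Slc25a14, FDR = 0.422). Slc25a30, a relative of Slc25a14, had an LFC of −0.15 (FDR = 0.576).

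The remaining cofactor and nucleotide carriers were not called. Among these were the pyrimidine nucleotide carriers Slc25a33 and Slc25a36, the folate and flavin carrier Slc25a32, the S-adenosylmethionine carrier Slc25a26, the CoA carriers Slc25a16 and Slc25a42, the NAD carrier Slc25a51 and the peroxisomal Slc25a17. Their LFC values ran from −0.23 for Slc25a33 (FDR = 0.171) to 0.20 for Slc25a26, with standard errors up to 0.13, and Slc25a36 had an LFC of −0.16 (FDR = 0.177). Over the family, 27 carriers were not called, of which 22 had an absolute LFC below 0.2, and their lowest FDR was 0.0557 for Slc25a1.

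Another 7 rows with a Slc25a name were not members. Slc25a43 was nearest the limit, with 10 or more reads in 4 mice and 3 to 19 reads per mouse, and Slc25a2 reached 10 reads in 3 mice. Slc25a21, Slc25a31, Slc25a41, Slc25a54 and Slc25a5-ps had at most 8 reads in any mouse. The member nearest the limit was Slc25a18, which had 10 or more reads in 9 mice.

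Carriers with the same or a like substrate were compared within each mouse, as the ratio of their RPKM, which does not depend on library scaling. Of 8 such pairs, 2 differed between the groups at a Benjamini–Hochberg adjusted p below 0.05 over the 8 pairs (exact permutation tests, two-sided). The ratio of Slc25a4 to Slc25a5 was 0.0388, 0.0354, 0.0401, 0.0631 and 0.0351 in germ-free mice 1 to 5 and 0.0136, 0.0168, 0.0219, 0.0200, 0.00752 and 0.0198 in humanized mice 1 to 6. It was lower in every humanized mouse than in every germ-free mouse, with a difference of −1.40 on the log2 scale (exact permutation test, p = 0.00216, the lowest value possible with groups of this size, adjusted p = 0.00866). The ratio of Slc25a28 to Slc25a37 was 0.578, 0.570, 0.595, 0.490 and 0.533 in germ-free mice 1 to 5 and 1.04, 0.921, 0.876, 0.958, 0.859 and 0.938 in humanized mice 1 to 6. It was higher in every humanized mouse, by 0.75 on the log2 scale (exact permutation test, p = 0.00216, adjusted p = 0.00866). The level of a ratio depends on the deposited lengths, which for Slc25a28 is 1514 bases where the annotation has 3749 exon bases, but its difference between groups does not.

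Groups overlapped for the other 6 pairs. The differences were −1.40 for Slc25a18 over Slc25a22 (exact permutation test, adjusted p = 0.0519) and −0.52 for Slc25a23 over Slc25a24 (exact permutation test, adjusted p = 0.0519), neither below the threshold. Both passed it with 0.5 RPKM added to both genes, which made the first difference smaller, and when certain single mice were left out. For Slc25a12 over Slc25a13, Slc25a39 over Slc25a40, Slc25a33 over Slc25a36 and Slc25a14 over Slc25a30, the exact permutation tests gave adjusted p between 0.0727 and 0.587.

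**Figure D4:**
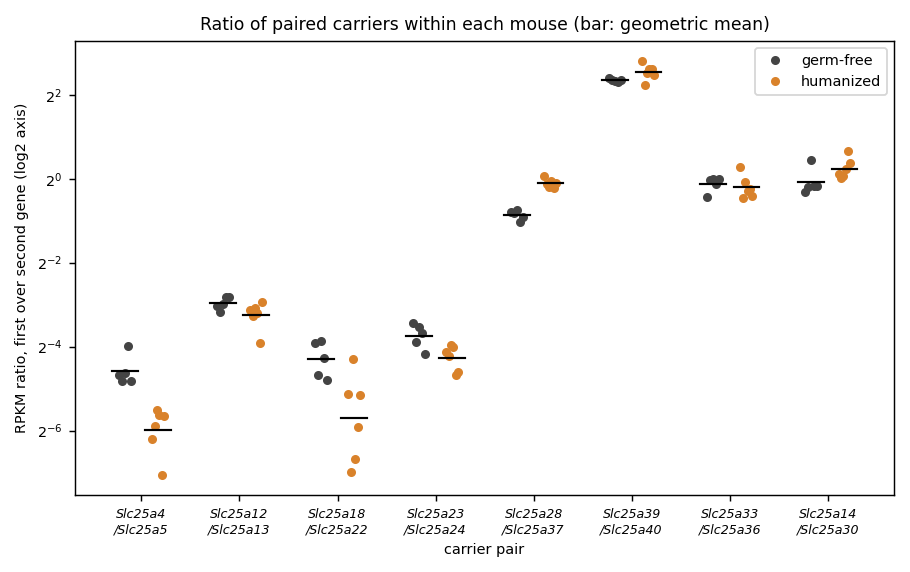
Ratio of the RPKM of the first to the second carrier of each pair (y axis, log2 scale) for 8 pairs (x axis), 1 point per mouse, with the geometric mean of each group as a bar. The groups are separate for Slc25a4 over Slc25a5, where humanized mice are lower, and for Slc25a28 over Slc25a37, where they are higher.

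SLC25 genes that do not bear a Slc25a name were read beside the members. Mtch2, an outer-membrane relative of the carriers, had 17.3 ± 1.12 RPKM for germ-free and 26.7 ± 2.67 RPKM for humanized mice (LFC of 0.62, SE 0.08, FDR = 1.43e-10), the groups did not overlap, and its LFC was 0.24 (FDR = 0.00365) when scaled to mitochondrial content genes. Ucp2 was abundant, with 66.7 ± 6.16 RPKM for germ-free and 80.3 ± 8.22 RPKM for humanized mice, and was not below an FDR of 0.01 (LFC of 0.27, SE 0.09, FDR = 0.0230). Mtch1 (LFC 0.07, FDR = 0.594) and Ucp3, with 0 to 46 reads per mouse (LFC −0.92, FDR = 0.183), were not called. Ucp1, the uncoupling protein of brown fat, had at most 2 reads in any mouse.

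Further lists set the carriers beside other mitochondrial genes, and their counts can be read against all tested genes, of which 9.2% were higher and 10.1% lower with TMM, 3.89% and 18.2% with total counts, and 2.57% and 14.2% with epithelial marker scaling. Of 22 nuclear genes of mitochondrial content, 18 were higher and none lower at FDR below 0.01, with a median LFC of 0.36, and their summed level was 1847 to 2202 RPKM among germ-free and 2296 to 3104 RPKM among humanized mice. Cycs, which encodes cytochrome c (LFC 0.69, FDR = 4.33e-09), and the complex III subunit Uqcrc2 (LFC 0.53, FDR = 8.97e-07) had the lowest FDR values. With total counts or epithelial marker scaling, 3 of the 22 were higher. Of 30 enzymes that work with the carriers, 13 were higher and 1 lower, with a median LFC of 0.25, but 6 were higher and 3 lower with total counts and 3 and 2 with epithelial marker scaling. The lower enzyme was Acaca, which starts fatty acid synthesis from exported citrate (LFC −0.36, FDR = 4.22e-05, named after its value was seen). Of 17 other transporters of mitochondrial membranes, 4 were higher and 1 lower, against 2 and 2 with total counts and 0 and 1 with epithelial marker scaling. With TMM, the porins Vdac1 (LFC 0.42, FDR = 1.05e-05) and Vdac3 (LFC 0.54, FDR = 3.49e-05) were higher and the sideroflexin Sfxn2 was lower (LFC −0.44, FDR = 0.00748, chosen after its value was seen). Of 12 tested genes of the machinery that imports carriers across the outer and into the inner membrane, 3 were higher and none lower. The 3 were Tomm70a, Timm8b and Tomm22, and no gene of this list was higher with total counts or epithelial marker scaling. Tomm70a, the receptor for carrier precursors, had an LFC of 0.30 (FDR = 0.00122). The other 9 were not called, among them Timm22 (LFC 0.11, FDR = 0.442, named after its value was seen).

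**Figure D5:**
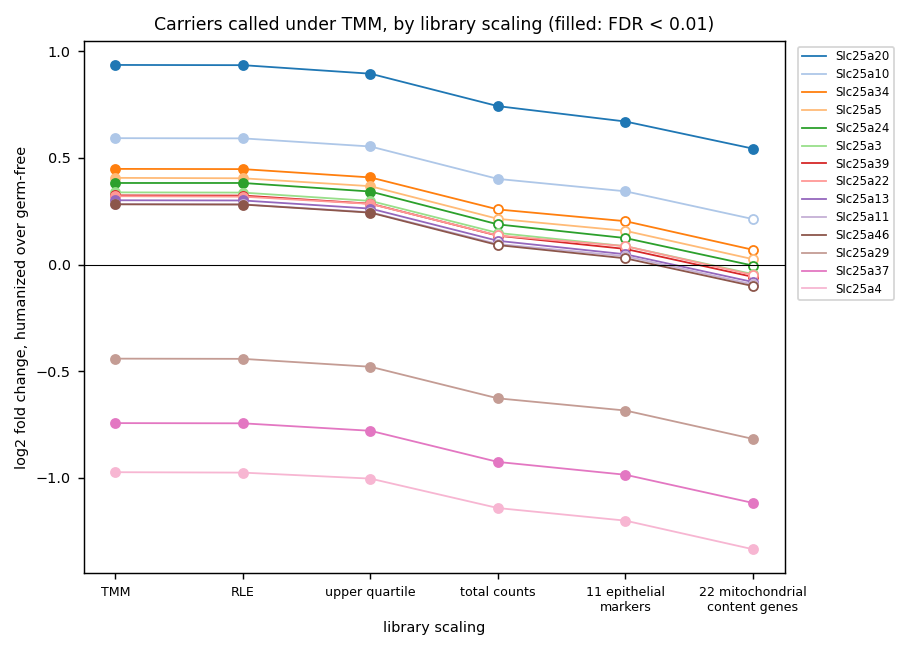
LFC of humanized over germ-free mice (y axis, log2 scale) for the 14 carriers called with TMM, under 6 library scalings (x axis), with filled points at FDR below 0.01. Slc25a5, Slc25a10, Slc25a20 and Slc25a34 stay above 0 throughout, and of these only Slc25a20 is filled throughout. The other 7 carriers that are above 0 with TMM lie below 0 when scaled to 22 mitochondrial content genes. Slc25a4, Slc25a29 and Slc25a37 stay below 0 throughout. Scaling by total counts, epithelial markers or mitochondrial content genes shifts all genes downward.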

How the data were processed

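Colonic polyA RNA of 5 germ-free and 6 humanized male mice was sequenced as 101 bp paired-end reads with a kit that does not mark strand. The authors aligned reads to mm10 (Bowtie 2.2.3, through TopHat 2.1.0), counted reads per gene with featureCounts (Subread 1.4.6-p5) and deposited raw counts of 43346 genes, 1 column per mouse, with a gene length whose derivation is not given in the sources used here. This length was over 2% shorter than the exon bases of the annotation (GENCODE M21) for 14 of the 41 carriers. Whether reads were counted on all these exon bases is not given, so the RPKM of these carriers may be raised beside other genes. Comparisons between groups do not depend on this length. Samples were grouped by their labels, which give each mouse as a separate animal and name no batch. Counts of mice of the same group differed by far more than counting noise (mean chi-square per gene 19.8 to 122).

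As in the study's own procedure, low genes were removed by filterByExpr (10 for the minimum count, 15 for the total, 10 for a large sample, 0.7 for the proportion), counts were normalized with TMM and groups were compared with edgeR's exact test (edgeR 4.0.16, R 4.3.3, limma 3.58.1) with Benjamini–Hochberg correction over 19863 genes at FDR below 0.01. Standard errors come from edgeR's quasi-likelihood fit. Single values and ratios were compared with exact permutation tests over all 462 splits of the mice, whose smallest p is 0.00216. Members, pairs and lists were chosen with earlier results of these data known. Carriers were named with LFC and FDR if called, among the 5 of highest mean RPKM or in a paralog pair, as were Ucp1, Ucp2, Ucp3, Mtch1 and Mtch2. The remaining carriers are named beyond this rule to account for the members, some with LFC and FDR. A member that was not called and a related enzyme are counted but not reported here by name. Values per mouse are given for the 6 of lowest FDR in each direction, the 3 of highest mean RPKM and the pairs past the threshold, and also for Slc25a34, chosen after its values were seen. Related lists name at most 4 genes of lowest FDR unless stated. Alternatives were the quasi-likelihood test, DESeq2 1.42.0, other scalings, filters and thresholds, a replicate block, and leaving out each mouse. All mice were used.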

Additional observations from a re-analysis of the deposited data

Results flagged for a closer look

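Within a group, 8 of 62 sets of values had a mouse farther from the others than Dixon's 95% critical value, where chance flags about 1 in 20. Germ-free mouse 4 was high for Slc25a4 (25.8 RPKM) and for its ratio to Slc25a5 (0.0631). Germ-free mouse 3 was high for Slc25a14 (2.26 RPKM), for Slc25a28 (12.9 RPKM) and for the ratio of Slc25a14 to Slc25a30 (1.37). Germ-free mouse 1 was low for Slc25a10 (48.5 RPKM). Humanized mouse 5 was high for Slc25a11 (46.7 RPKM) and Slc25a34 (27.9 RPKM).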

How the results depend on the processing

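Leaving out each mouse in turn gave 7 to 11 higher and 2 to 3 lower carriers, with 6.69% to 10.6% of all genes higher and 7.45% to 11.8% lower. The quasi-likelihood test gave 8 higher and 3 lower (all genes 7.05% and 6.53%) and no filter 9 and 3 (5.16% and 6.4%). DESeq2, RLE, upper quartile and a filter of 10 counts in every mouse each gave 11 and 3, with 7.87% to 11% of all genes higher and 10.1% to 11% lower. FDR below 0.05 also gave 11 and 3, against 14.0% and 14.6%. Total counts gave 2 and 7, epithelial marker scaling 2 and 3, and mitochondrial content scaling 1 and 13. Mouse numbers name different animals, and the deviations of mice with the same number correlated by −0.13 to 0.09 across genes, so that the numbers do not pair the mice. A quasi-likelihood fit with a replicate block gave 1 higher and 2 lower carriers, and 506 higher and 506 lower genes in all, against 1401 and 1298 in the same test without it.

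With total counts, the list counts moved to 3 higher mitochondrial content genes, 6 higher and 3 lower partner enzymes, 2 higher and 2 lower other transporters and 0 higher import genes. With epithelial marker scaling these were 3, then 3 and 2 for the partner enzymes, 0 higher other transporters and 0 import genes. Differences of paralog ratios when each mouse was left out ran from −1.68 to −1.14 for Slc25a18 over Slc25a22, −0.63 to −0.44 for Slc25a23 over Slc25a24, 0.23 to 0.45 for Slc25a14 over Slc25a30 and 0.14 to 0.26 for Slc25a39 over Slc25a40, and each passed the threshold in at least 1 of these. With 0.5 RPKM added to both genes, Slc25a18 over Slc25a22 (−0.64) and Slc25a23 over Slc25a24 (−0.51) passed it too. The other 4 pairs stayed on their side of the threshold.

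Signs were followed for the called carriers, the members of pairs and the Mtch and Ucp genes only, while the median over all 41 carriers moved from 0.05 to −0.32 with mitochondrial content scaling. With that scaling the LFC values that turned were −0.31 for Mtch1, −0.093 for Slc25a11, −0.36 for Slc25a12, −0.082 for Slc25a13, −0.21 for Slc25a14, −0.049 for Slc25a22, −0.005 for Slc25a24, −0.36 for Slc25a28, −0.045 for Slc25a3, −0.058 for Slc25a39, −0.25 for Slc25a40, −0.10 for Slc25a46 and −0.11 for Ucp2. With epithelial marker scaling they were −0.18 for Mtch1, −0.23 for Slc25a12, −0.075 for Slc25a14, −0.23 for Slc25a28 and −0.12 for Slc25a40, and with total counts −0.12 for Mtch1, −0.17 for Slc25a12, −0.015 for Slc25a14, −0.17 for Slc25a28 and −0.059 for Slc25a40. Slc25a12 and Slc25a28, whose LFC values were near 0, also turned with a filter of 10 counts in every mouse (−0.007 and −0.009), with upper quartile (−0.020 and −0.024), with the block (−0.064 and −0.026) and when single mice were left out (−0.070 to 0.088 and −0.028 to 0.057). Apart from the scalings, whose construction shifts all genes, the cause of these changes was not tested. The lowest count of a called carrier in any mouse was 301, for Slc25a29, whereas Slc25a18 had as few as 4 reads and the widest standard error (0.41).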
